A study of Mus musculus with 20 samples.

Results

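The effect of wheel running on gene expression was examined in the hearts of wild-type mice. The comparison took 10 of the 20 libraries of the series and 13723 of its 25851 genes, those with a mean of at least 0.5 FPKM over all 20 libraries. FPKM are fragments scaled by transcript length and by a size for each library, which here includes a scaling between libraries by the authors. How a level compares between libraries depends on that scaling, and the number of genes called changed with it, as given below. The trained group (WT_Ex) held 5 wild-type males that had a voluntary running wheel for 6 weeks. Its control (WT_Sed) held 5 wild-type males kept sedentary. All mice were 14 to 16 weeks old. The other 10 libraries came from mice whose label is cardiomyocyte PGC-1α knockout, 5 trained in the same way (KO_Ex) and 5 sedentary (KO_Sed). They lent their spread between mice to the test and are set beside the wild-type values near the end. Ppargc1a, the gene for PGC-1α, had 22.6 ± 3.01 FPKM in KO_Ex and 22.9 ± 4.41 FPKM in KO_Sed, against 15.8 ± 4.86 FPKM in WT_Ex and 12.3 ± 2.85 FPKM in WT_Sed hearts (SD, n = 5 each). It was therefore not lower in the hearts of the knockout label, which are called labelled knockout here. The deleted exons, the Cre driver, the mouse strain, the distance run, the hour of tissue collection and the time since the last run are not given in the sources used here.

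Endurance running makes the heart pump more blood for hours at a time and, over weeks, is known to enlarge the ventricle in a reversible way. A bout of exercise raises body temperature, catecholamines and glucocorticoids, and the heart is known to answer acute load with immediate early genes and chaperones. The working heart takes most of its energy from fatty acids oxidised in mitochondria. Mice run mainly in the dark, so running, feeding and the hour of the day are tied to one another in a cage with a wheel.

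The libraries were made from pieces of heart whose chamber the labels do not name. Reads recovered from the FPKM came to 14.2 to 22.8 M in WT_Ex and 16.9 to 25.0 M in WT_Sed libraries, and transcripts of the mitochondrial genome took 15.6 to 20.3% of the reads in WT_Ex and 17.9 to 23.5% in WT_Sed. Defining genes of ventricular muscle were abundant in every library: 10 such genes summed to 17759 to 23110 FPKM in WT_Ex and 20865 to 26062 FPKM in WT_Sed. Myl7, the atrial light chain of myosin, stood at 1975 and 3484 FPKM in WT_Ex replicates 4 and 5. It stood at 0.0846, 2.88 and 0.508 FPKM in WT_Ex replicates 1 to 3 and between 0 and 97.1 FPKM in WT_Sed. The 10 atrial genes summed to 6288 and 9893 FPKM in WT_Ex replicates 4 and 5, against 70.4 to 136 FPKM in replicates 1 to 3 and 106 to 324 FPKM in WT_Sed. Atrial transcripts were thus abundant in 2 of the 5 trained hearts and scarce in the other 8 libraries. The same 2 libraries had fat transcripts, with a sum of 463 and 145 FPKM over 8 fat genes, against 16.0 to 21.9 FPKM in WT_Ex replicates 1 to 3 and 15.2 to 26.5 FPKM in WT_Sed. Genes of the mesothelium, the outer skin of the heart, summed to 65.1, 52.4 and 30.4 FPKM in WT_Ex replicates 2, 4 and 5, against 3.10 and 6.26 FPKM in replicates 1 and 3 and 3.01 to 4.55 FPKM in WT_Sed. A second difference ran along the groups. Arntl, the clock activator BMAL1, which cycles over the day, had 0.564, 0.254, 1.16, 0.192 and 0.150 FPKM in WT_Ex, against 3.13, 2.78, 4.36, 2.46 and 0.0658 FPKM in WT_Sed. WT_Sed replicates 1 to 4 were above every WT_Ex library and WT_Sed replicate 5 below all of them. Hour of collection and training cannot be told apart where they moved together. Red cell genes, 5 in number, summed to 975 to 1894 FPKM in WT_Ex and 213 to 1350 FPKM in WT_Sed.

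**Figure D1:**
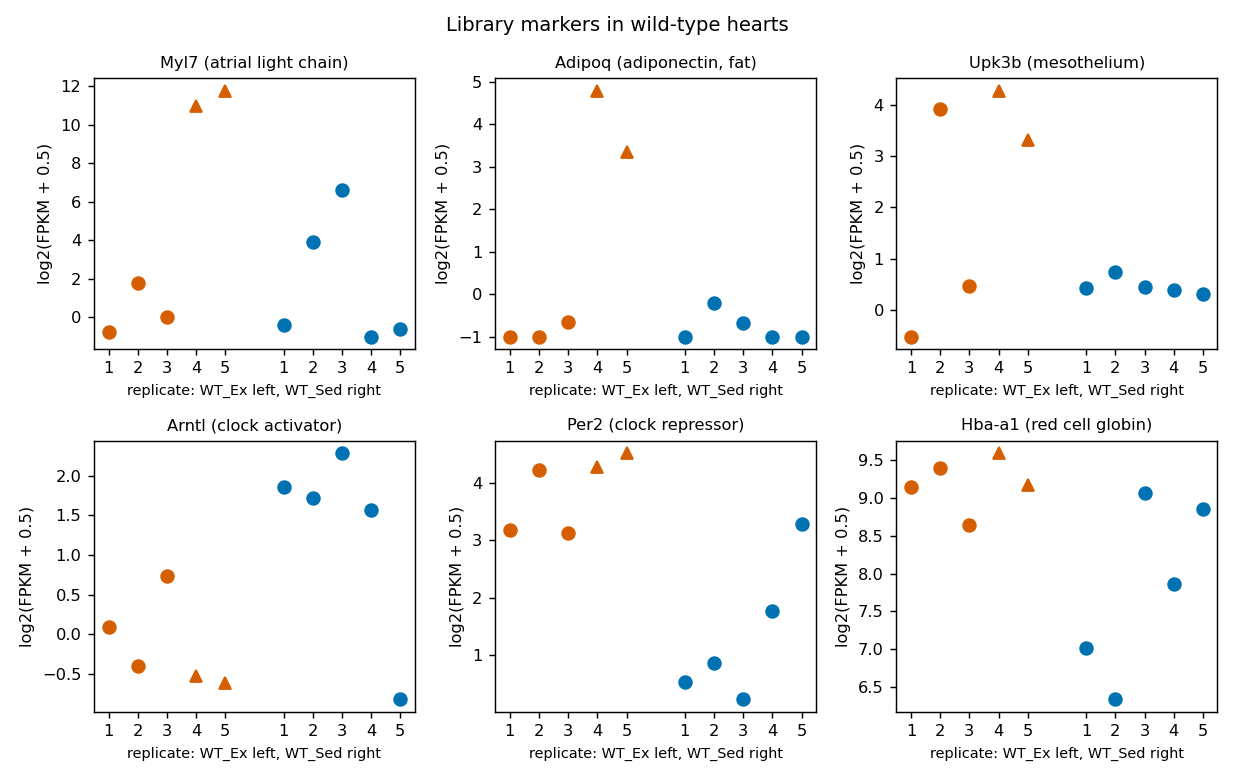
Expression of 6 marker genes in each wild-type library, on the log2(FPKM + 0.5) scale, with the 5 WT_Ex libraries (orange) left of the 5 WT_Sed libraries (blue) and triangles for WT_Ex replicates 4 and 5. Myl7 and Adipoq were high in WT_Ex replicates 4 and 5, Upk3b in WT_Ex replicates 2, 4 and 5, and Arntl was high in WT_Sed replicates 1 to 4.

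Trained and sedentary hearts differed in 750 of the 13723 genes at a limma adjusted p under 0.05, 403 of them higher (2.94% of the genes tested) and 347 lower (2.53%) in WT_Ex than in WT_Sed. All changes are log2 differences on the log2(FPKM + 0.5) scale with their standard error, and group values are means ± SD of 5 mice. Most changes were small, with a median of 0.56 among the higher and -0.42 among the lower genes. Changes of at least 2-fold numbered 50 and 18. Of the 403 higher genes 210 had all 5 WT_Ex libraries above all 5 WT_Sed libraries, a pattern found in 2.24% of all genes tested. Of the 347 lower genes 146 had all 5 WT_Ex below all 5 WT_Sed libraries, as 1.68% of all genes did. WT_Ex replicate 1 was nearest to the sedentary hearts: it lay beyond all 5 WT_Sed libraries for 251 of the higher and 189 of the lower genes, while the other 4 trained libraries did so for 346 to 390 and 297 to 343.

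Without WT_Ex replicates 4 and 5, the 2 libraries with abundant atrial transcripts, 48 genes were higher (0.35%) and 9 lower (0.0656%) at the same threshold. They included 47 of the 403 higher and 9 of the 347 lower genes of the full comparison. The sign was kept by all 403 and all 347, where 86.9% of all genes tested kept theirs, and the 3 remaining trained libraries entered both comparisons. At least 50% of the log2 change was kept by 395 higher and 346 lower genes, and the median share kept was 88.8% and 83.3%. At an unadjusted limma p under 0.05 there were 397 and 340, where 1954 of all 13723 genes tested had such a p. The called genes were chosen with these same 3 trained and 5 sedentary libraries among others, so the counts are no separate test. With WT_Ex replicates 1 to 3 alone, all 3 lay above the 5 WT_Sed libraries for 225 of the higher genes (3.83% of all genes) and below them for 155 of the lower genes (2.7% of all genes). When the 2 wild-type groups were fitted alone without replicates 4 and 5, with no spread lent by the labelled knockout libraries, limma called 0 genes, and 1343 genes had an unadjusted p under 0.05.

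The number of genes called moved strongly when some single mice were left out. It was 94 higher and 33 lower without WT_Ex replicate 4, 164 and 90 without WT_Ex replicate 5, and 147 and 88 without WT_Ex replicate 2. It was 118 and 72 without WT_Sed replicate 1, 215 and 164 without WT_Sed replicate 2, and 128 and 70 without WT_Sed replicate 3. It was 1051 and 1260 without WT_Ex replicate 1, the trained heart nearest to the sedentary ones. Other omissions changed it less: 439 and 391 without WT_Ex replicate 3, 509 and 378 without WT_Sed replicate 4, and 430 and 367 without WT_Sed replicate 5. With values scaled by length to the same total in each library (TPM) 186 genes were higher and 54 lower, and a count model (limma voom) on the recovered reads gave 493 and 105. Higher genes thus made up 53.7% of the calls in the full comparison, 77.5% in TPM and 82.4% by voom. Their share also moved with the scaling kept, to 85.2% with the wild-type groups fitted alone, 84.2% without WT_Ex replicates 4 and 5, and 45.5% without WT_Ex replicate 1. With the log2 level of Arntl in the model 44 genes were higher (0.321%) and 29 lower (0.211%). All 403 and 347 genes kept their sign there, with a median of 77.5% and 82.3% of the change kept, and 41 and 20 of them stayed past the threshold.

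**Figure D2:**
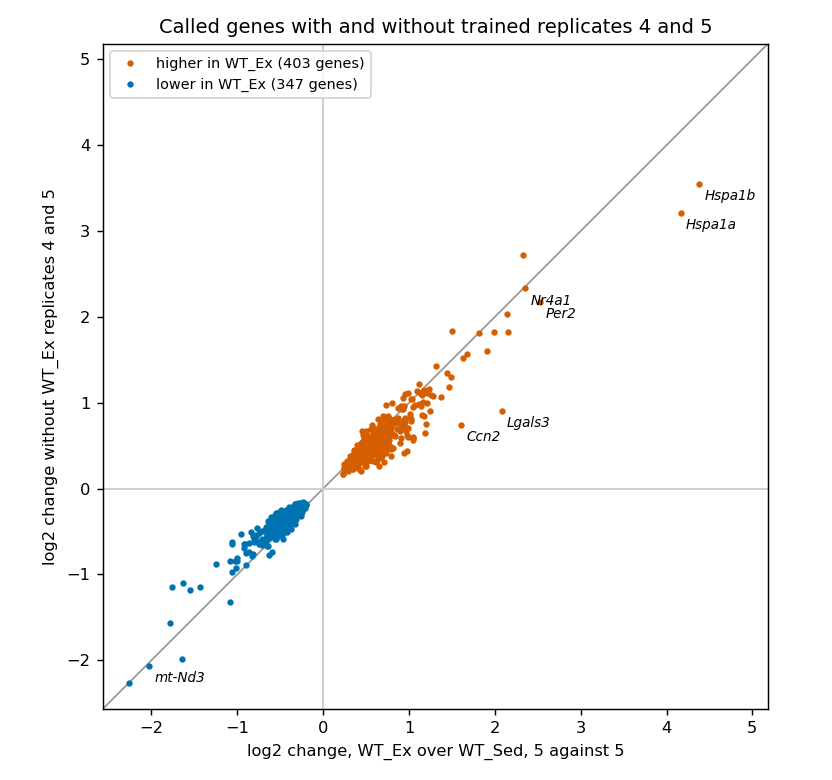
Log2 change of the 750 called genes in 5 WT_Ex against 5 WT_Sed libraries (x axis) and without WT_Ex replicates 4 and 5 (y axis), with 403 higher genes in orange, 347 lower genes in blue and the line of equal change in grey. Every gene kept its sign, most lay near the line, and Lgals3 and Ccn2 lay well under it.

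Heat shock chaperones held the 2 largest increases among the called genes. These proteins bind unfolded chains and refold them, and their genes are switched on by heat shock factor 1. Of 32 members tested 10 rose and 1 fell, with a median log2 change of 0.20 over the list, against -0.01 over all genes tested. Among all genes tested 2.94% were higher and 2.53% lower, the shares to set beside the counts of this list and of every list below. Hspa1b, the inducible HSP70 (ENSMUSG00000090877, chromosome 17, 34956436 to 34959238 on the minus strand of GRCm38), had 9.60, 5.92, 113, 88.0 and 74.6 FPKM in WT_Ex replicates 1 to 5, against 0.600, 0.646, 1.33, 2.40 and 1.37 FPKM in WT_Sed. All trained hearts were above all sedentary ones, and within the trained group replicates 1 and 2 stood far under replicates 3 to 5. The log2 change was 4.38 ± 0.65 (adjusted p = 0.00279) and 3.55 ± 0.69 without replicates 4 and 5 (adjusted p = 0.0405). Its neighbour and near copy Hspa1a had 6.33, 4.32, 66.8, 68.4 and 65.6 FPKM in WT_Ex, against 0.515, 0.653, 0.846, 1.86 and 0.971 FPKM in WT_Sed. The same mice were high and low for both genes, whose reads may be shared between the copies, so the split between them is uncertain. Hspa1a rose by 4.16 ± 0.67 log2 units (adjusted p = 0.00371), and by 3.21 ± 0.67 without replicates 4 and 5 (adjusted p = 0.0465).

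Dnaja1 and Dnajb1 are HSP40 cochaperones that deliver clients to HSP70. Dnaja1 had 13.7, 13.0, 28.4, 25.7 and 21.0 FPKM in WT_Ex, against 6.43, 6.01, 9.37, 11.2 and 7.24 FPKM in WT_Sed. It rose by 1.25 ± 0.20 log2 units (adjusted p = 0.00324) and by 1.09 ± 0.22 without replicates 4 and 5 (adjusted p = 0.0452), with no overlap of the groups. Dnajb1 rose by 1.37 ± 0.28 log2 units (adjusted p = 0.0126). It averaged 20.0 ± 10.2 FPKM in WT_Ex and 6.91 ± 2.22 FPKM in WT_Sed. Hsph1, the HSP110 that recharges HSP70, rose by 1.21 ± 0.25 log2 units, Hsp90aa1, the inducible HSP90, by 0.96 ± 0.23, and Hspb1, the small chaperone HSP27, by 0.82 ± 0.17. For these 3 genes the groups overlapped, since WT_Ex replicate 2 stood at 9.42, 34.8 and 347 FPKM and the highest WT_Sed library at 9.99, 41.1 and 380 FPKM. Hspa2 (0.71), the constitutive HSP70 Hspa8 (0.38) and the HSP90 activator Ahsa1 (0.30) rose less. Hsf2, a sister factor of heat shock factor 1, fell by 0.33 ± 0.08 on the log2 scale, and Hsf1 itself had a change of 0.07 that did not pass. Without replicates 4 and 5, Hspa1b, Hspa1a and Dnaja1 were still past the threshold, and the list median was 0.14. With log2 Arntl in the model Hspa1b, Hspa1a, Dnaja1, Hsph1 and Hsp90aa1 passed.

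The sequences before the start sites of 4 of these genes show the box that heat shock factor 1 is known to bind, inverted repeats of the letters GAA. Hspa1a and Hspa1b share the printed window base for base, and their 300-base promoters are identical at 296 positions, so 1 of the pair is shown. Windows of 100 bases are from RefSeq promoters (GRCm38.p6), written 5′ to 3′ on the strand of the gene, and capitals mark matches to GAANNTTC or TTCNNGAA. They lie at chr17:34959289-34959388 (minus strand) for Hspa1b, chr5:135887769-135887868 (plus strand) for Hspb1, chr4:40722318-40722417 (plus strand) for 1 of 3 listed Dnaja1 starts, and chr5:149636347-149636446 (minus strand) for Hsph1.
Hspa1b: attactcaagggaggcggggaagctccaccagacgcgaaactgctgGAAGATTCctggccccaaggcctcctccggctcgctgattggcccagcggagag
Hspb1: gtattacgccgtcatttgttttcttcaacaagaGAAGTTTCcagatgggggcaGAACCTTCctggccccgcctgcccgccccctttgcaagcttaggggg
Dnaja1: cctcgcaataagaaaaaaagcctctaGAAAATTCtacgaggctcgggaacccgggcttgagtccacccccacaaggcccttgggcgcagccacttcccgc
Hsph1: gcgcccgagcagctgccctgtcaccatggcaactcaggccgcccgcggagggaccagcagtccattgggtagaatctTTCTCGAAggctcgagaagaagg
A match to either form was present for 5 of the 8 risen members with a listed promoter, and in 15.1% of all 32851 promoters of 300 bases. Both forms read the same on either strand. The first count is per gene, with a match in any listed promoter, and takes the near copies Hspa1a and Hspa1b separately. The share over all promoters is per promoter, so the 2 are not counted alike.

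Immediate early genes respond to signals within minutes without new protein. Of 38 tested 12 rose and 0 fell, and 36 had a positive change, with a median of 0.57 (0.44 without replicates 4 and 5). The orphan nuclear receptor Nr4a1 (chromosome 15, 101254269 to 101274795, plus strand) had 41.7, 34.5, 42.9, 29.4 and 56.5 FPKM in WT_Ex, against 2.39, 3.79, 12.6, 9.91 and 18.3 FPKM in WT_Sed. The lowest trained heart was above the highest sedentary heart, and WT_Sed replicates 1 and 2 were the lowest. Nr4a1 rose by 2.35 ± 0.45 log2 units (adjusted p = 0.0111), and its change without replicates 4 and 5 was 2.33 ± 0.54 (adjusted p = 0.071). Its relative Nr4a3 had 6.15, 3.87, 5.15, 3.42 and 10.6 FPKM in WT_Ex, against 1.12, 0.449, 1.43, 1.49 and 0.226 FPKM in WT_Sed. Nr4a3 rose by 2.14 ± 0.35 log2 units (adjusted p = 0.00395), and by 2.03 ± 0.38 without replicates 4 and 5 (adjusted p = 0.038). Nr4a2, the third of the family, rose by 1.03 ± 0.21 log2 units.

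Atf3, a stress-induced transcription factor of the AP-1 type, had 9.46, 12.8, 11.9, 12.3 and 33.7 FPKM in WT_Ex, against 2.13, 2.00, 4.01, 3.58 and 2.95 FPKM in WT_Sed. It rose by 2.15 ± 0.36 log2 units (adjusted p = 0.0042), and by 1.82 ± 0.37 without replicates 4 and 5 (adjusted p = 0.0452). The high value of WT_Ex replicate 5 also appeared in Fos, with 26.7 FPKM there, 1.10 to 2.86 FPKM in the other 4 WT_Ex libraries and 0.606 to 3.39 FPKM in WT_Sed. Fos did not pass (1.2 ± 0.51, adjusted p = 0.148). Other AP-1 genes did: Maff by 1.2 ± 0.19, Junb by 0.76 ± 0.19, Fosl2 by 0.72 ± 0.14, Mafk by 0.61 ± 0.11 and Jund by 0.54 ± 0.12. Jdp2, which pairs with Jun and represses AP-1 sites, had 7.09 to 10.7 FPKM in WT_Ex and 3.06 to 5.83 FPKM in WT_Sed, with a log2 change of 1.15 ± 0.16 (adjusted p = 0.00187). Sik1, a salt-inducible kinase of cyclic AMP signalling, had 17.9 to 31.9 FPKM in WT_Ex and 4.56 to 13.7 FPKM in WT_Sed and rose by 1.31 ± 0.29 log2 units. Atf3, Nr4a3, Maff and Fosl2 of the list, and Jdp2 beside it, were still past the threshold without replicates 4 and 5. With log2 Arntl in the model Nr4a3 was the only one of the 12 to pass (2.38, adjusted p = 0.0193), and the adjusted p was 0.0603 for Atf3, 0.0502 for Maff, 0.0518 for Fosl2 and 0.129 for Nr4a1. A cyclic AMP response element (TGACGTCA) or a CArG box was found for 1 of the 10 risen members with a listed promoter, Maff. These motifs occur in 1.79% and 1.63% of all promoters, shares taken per promoter, while Maff has 3 listed promoters.

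Genes of the integrated stress response, in which phosphorylation of eIF2α lets ATF4 be translated, gave smaller changes. Of 30 tested 6 rose and 1 fell, with a median of 0.19. Atf4 had 38.0, 42.3, 45.0, 45.8 and 52.6 FPKM in WT_Ex, against 29.3, 31.0, 32.1, 34.4 and 33.03 FPKM in WT_Sed. The groups did not overlap, and the log2 change was 0.47 ± 0.08 (adjusted p = 0.00511), 0.38 ± 0.09 without replicates 4 and 5 (adjusted p = 0.0664). Ddit3, the proapoptotic factor CHOP, rose by 0.68 ± 0.14 log2 units, the amino acid transporter subunits Slc3a2 and Slc7a5 both by 0.51, and Nupr1 by 0.73 ± 0.19. Vldlr, a lipoprotein receptor, fell by 0.74 ± 0.18 log2 units. Gdf15, the stress cytokine in the title of the series, had 1.78, 1.15, 3.17, 1.64 and 0.824 FPKM in WT_Ex, against 2.36, 1.15, 1.13, 1.45 and 0.729 FPKM in WT_Sed. The groups overlapped fully, and the log2 change of 0.22 ± 0.35 did not pass (adjusted p = 0.711). Of 22 genes of the unfolded protein response of the endoplasmic reticulum 0 rose and 0 fell, with a median of -0.11 (-0.04 in TPM). No member of the ATF4 list passed without replicates 4 and 5, or with log2 Arntl in the model.

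Per2, Ciart and Per1, repressors of the circadian clock, were the 3 risers among 13 core clock genes, of which 0 fell. Per2, a repressor of the clock (chromosome 1, 91415982 to 91459324, minus strand), had 8.58, 18.2, 8.19, 18.9 and 22.2 FPKM in WT_Ex, against 0.948, 1.32, 0.678, 2.91 and 9.20 FPKM in WT_Sed. The highest sedentary value belongs to WT_Sed replicate 5, the sedentary heart with low Arntl, and lies within the trained range. Per2 rose by 2.52 ± 0.55 log2 units (adjusted p = 0.0171), with a change of 2.17 ± 0.64 without replicates 4 and 5 (adjusted p = 0.152) and 1.01 with Arntl in the model (adjusted p = 0.0289). Ciart, another repressor, rose by 1.99 ± 0.56 log2 units (adjusted p = 0.0459) and Per1 by 1.44 ± 0.41 (adjusted p = 0.0479), with 0.44 and 0.53 when Arntl was in the model. Ciart had 6.69 to 16.5 FPKM in WT_Ex, against 18.7 FPKM in WT_Sed replicate 5 and 0.929 to 1.99 FPKM in the other 4 WT_Sed libraries. Without the 5 libraries of the series with Arntl above 2 FPKM, which leaves WT_Sed replicate 5 as the only sedentary wild-type heart, the changes of Per1 and Ciart turned to -0.042 and -0.624. Dbp, an output factor of the clock, had 45.8 to 87.5 FPKM in WT_Ex and 7.0 to 94.5 FPKM in WT_Sed and did not pass (1.55 ± 0.46, adjusted p = 0.0549). Of 14 clock output genes Bhlhe40 rose by 0.61 ± 0.16 log2 units and Nampt, the enzyme of NAD salvage, fell by 0.42 ± 0.12.

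The Ciart promoter is shown because it holds 3 E-boxes (CACGTG), the letters bound by the BMAL1 and CLOCK pair. The 120 bases at chr3:95882249-95882368 (minus strand, GRCm38.p6, RefSeq) read as follows, with the E-boxes in capitals.
Ciart: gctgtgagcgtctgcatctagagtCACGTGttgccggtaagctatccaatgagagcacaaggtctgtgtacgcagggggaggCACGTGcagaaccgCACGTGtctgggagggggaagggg
An E-box of these letters, which reads the same on both strands, occurs in 7.15% of the 32851 promoters and in both risen core clock genes with a listed promoter, Ciart and Per1. The share is per promoter, while a gene counts with a match in any listed promoter, of which Per1 has 2.

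Targets of the glucocorticoid receptor and of FoxO factors moved in both directions. Of 21 tested 4 rose and 2 fell. Fkbp5, a cochaperone induced by glucocorticoids, had 4.65, 8.11, 3.69, 7.99 and 9.42 FPKM in WT_Ex, against 1.19, 1.22, 1.21, 6.49 and 2.35 FPKM in WT_Sed. The groups overlapped through WT_Sed replicate 4, and the log2 change was 1.46 ± 0.42 (adjusted p = 0.0474). Tsc22d3, the glucocorticoid-induced leucine zipper, rose by 1.01 ± 0.27 log2 units and Errfi1, a feedback inhibitor of EGF receptors, by 0.78 ± 0.19. Trim63, the muscle ubiquitin ligase MuRF1, fell by 0.56 ± 0.12 log2 units (adjusted p = 0.0191). It averaged 55.4 ± 13.4 FPKM in WT_Ex and 80.7 ± 9.07 FPKM in WT_Sed. Without replicates 4 and 5, and with Arntl in the model, 0 of the 21 passed, and the list median was 0.49 and 0.30, against 0.48 in the full comparison.

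Of 34 genes of fatty acid uptake and oxidation 0 rose and 12 fell. In this list 32 had a negative change, and the median was -0.32, against -0.01 over all genes tested. Pdk4, a kinase that inhibits pyruvate dehydrogenase, had 69.0, 95.0, 57.8, 42.7 and 60.9 FPKM in WT_Ex, against 134, 131, 151, 175 and 71.1 FPKM in WT_Sed. The low WT_Sed value again belongs to replicate 5. Pdk4 fell by 1.01 ± 0.29 on the log2 scale (adjusted p = 0.0481). Acot1, a cytosolic thioesterase, fell by 0.90 ± 0.23 log2 units. It had 3.10 to 5.61 FPKM in WT_Ex and 5.95 to 12.6 FPKM in WT_Sed, with no overlap. Hadhb, a subunit of the trifunctional protein of beta oxidation, had 253, 178, 231, 169 and 163 FPKM in WT_Ex, against 274, 253, 296, 280 and 255 FPKM in WT_Sed. Trained replicates 1 and 3 lay at or just under the sedentary range and replicates 2, 4 and 5 well under it. The log2 change was -0.47 ± 0.12 (adjusted p = 0.0309), and -0.31 ± 0.12 without replicates 4 and 5 (adjusted p = 0.26). Lipoprotein lipase Lpl fell by 0.48 ± 0.12 log2 units, the medium-chain dehydrogenase Acadm by 0.43 ± 0.12, the lipid droplet coat Plin5 by 0.55 ± 0.15, the carnitine palmitoyltransferase Cpt2 by 0.33 ± 0.09 and malonyl-CoA decarboxylase Mlycd by 0.37 ± 0.09. Without replicates 4 and 5 none of the 34 passed, 28 were negative and the median was -0.18. With log2 Arntl in the model none passed either, and the median was -0.27. In TPM 2 of the 34 fell and the median was -0.24. Sums of ventricular and of atrial genes, given above, moved with replicates 4 and 5, and their part in this result was not tested.

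Breakdown of branched-chain amino acids and ketone bodies held decreases too. Of 22 tested 0 rose and 6 fell, with a median of -0.23 (-0.16 without replicates 4 and 5). Dbt, of the branched-chain ketoacid dehydrogenase, fell by 0.61 ± 0.17 log2 units, the ketone-activating transferase Oxct1 by 0.54 ± 0.15, Acadsb by 0.46 ± 0.12, Ivd by 0.38 ± 0.11, the thiolase Acat1 by 0.36 ± 0.09 and Mccc2 by 0.23 ± 0.07. Oxct1 had 347, 181, 303, 205 and 219 FPKM in WT_Ex, against 440, 364, 385, 318 and 285 FPKM in WT_Sed. WT_Ex replicates 1 and 3 lay within the sedentary range and the other 3 below it. In the tricarboxylic acid cycle and pyruvate entry 0 of 27 rose and 3 fell: Suclg2 by 0.38 ± 0.10, Sucla2 by 0.36 ± 0.10 and Pdhb by 0.23 ± 0.06. None of these 9 genes passed without replicates 4 and 5, in TPM, or with log2 Arntl in the model. The median of the branched-chain and ketone list was -0.15 in TPM, and that of the tricarboxylic acid list was -0.17 in full and -0.09 in TPM.

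Few nuclear genes of the respiratory chain passed, near the 2.94% higher and 2.53% lower of all genes tested. Of 36 nuclear genes of complex I 0 rose and 1 fell (Ndufs1, by 0.35 ± 0.09), and of 35 genes of complexes III to V 0 rose and 0 fell. Their medians were -0.05 and -0.06, with a change of sign to 0.04 and 0.03 without replicates 4 and 5 and to 0.03 and 0.02 in TPM. Of 13 protein-coding transcripts of the mitochondrial genome 1 fell. mt-Nd3, a short subunit gene of complex I, had 45.9, 97.3, 64.3, 87.1 and 57.0 FPKM in WT_Ex, against 123, 170, 614, 280 and 455 FPKM in WT_Sed. The groups did not overlap, the sedentary values differed widely among themselves, and the log2 change was -2.03 ± 0.51 (adjusted p = 0.031). All 13 had a negative change, with a median of -0.40 (-0.32 in TPM, -0.21 without replicates 4 and 5). Poly-A selected libraries carry these transcripts by their short tails. Outside that list 18 tRNA genes of the mitochondrial genome were tested, of which 0 rose and 3 fell, named here after their values were seen. mt-Tn, the tRNA of asparagine (mitochondrial chromosome, 5089 to 5159, minus strand), had 811, 511, 683, 501 and 488 FPKM in WT_Ex, against 1403, 1092, 1160, 1145 and 1107 FPKM in WT_Sed. The groups did not overlap, and the level assigned to mt-Tn fell by 1.0 ± 0.15 log2 units (adjusted p = 0.00295). Its change was -0.84 ± 0.17 without replicates 4 and 5 (adjusted p = 0.0429). Libraries were poly-A selected, and whether counting used strand is not given. Whether these reads came from the tRNA itself or from longer transcripts over the same bases is therefore not known. The changes of mt-Te (-0.67) and mt-Tl2 (-1.63) did not pass without replicates 4 and 5. Of 26 genes of glucose uptake and glycolysis 0 rose and 0 fell. Of 21 coactivators and partners of PGC-1, Pprc1 rose by 0.44 ± 0.09 log2 units and Tfam, the packaging factor of mitochondrial DNA, fell by 0.37 ± 0.08. Ppargc1a had 21.9, 10.4, 17.4, 11.2 and 17.98 FPKM in WT_Ex, against 14.8, 9.39, 15.4, 12.2 and 9.48 FPKM in WT_Sed, and did not pass (0.33 ± 0.19, adjusted p = 0.273).

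**Figure D3:**
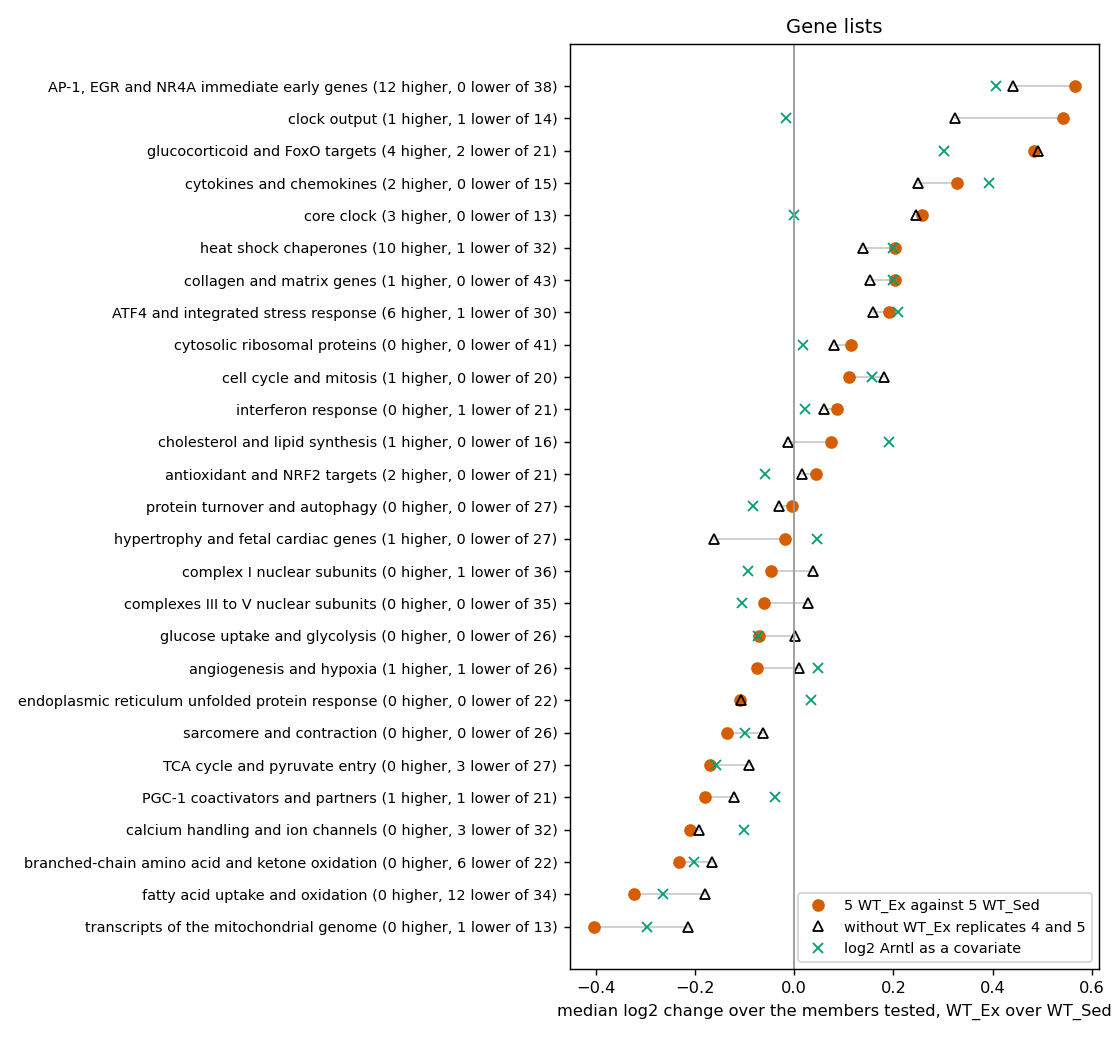
Median log2 change of WT_Ex over WT_Sed for 27 gene lists, with the number of members higher and lower of those tested beside each name. Filled circles are 5 against 5 libraries, open triangles leave out WT_Ex replicates 4 and 5, and crosses have log2 Arntl in the model: immediate early genes stand at 0.57, 0.44 and 0.41, and fatty acid genes at -0.32, -0.18 and -0.27.

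Channel and calcium genes held decreases but no increases. Of 32 tested 0 rose and 3 fell, with a median of -0.21. Kcne1, the beta subunit of the slow delayed rectifier potassium channel (chromosome 16, 92345982 to 92359468, minus strand), had 0.948, 0.529, 0.728, 0.765 and 0.351 FPKM in WT_Ex, against 1.63, 1.63, 1.31, 2.66 and 2.54 FPKM in WT_Sed. No trained heart reached the lowest sedentary one, and the fall was -1.06 ± 0.18 (adjusted p = 0.00399), -0.97 ± 0.20 without replicates 4 and 5 (adjusted p = 0.0452). Rrad, a small GTPase that restrains L-type calcium channels, is outside the list and had 80.3, 64.8, 91.3, 53.8 and 109 FPKM in WT_Ex, against 178, 180, 126, 128 and 125 FPKM in WT_Sed. It fell by 0.90 ± 0.18 on the log2 scale (adjusted p = 0.0118), and by 0.89 ± 0.18 without replicates 4 and 5 (adjusted p = 0.0423). Cacna2d1, a calcium channel subunit, fell by 0.65 ± 0.16 log2 units and Kcnj2, which sets the resting potential, by 0.59 ± 0.14. Both were short of the threshold without replicates 4 and 5 (-0.55 each).

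Contractile and hypertrophy genes did not pass the test, with 1 exception. Of 26 sarcomere genes 0 rose and 0 fell, with a median of -0.13 (-0.06 in TPM). Myh6 and Myh7, the fast and slow cardiac myosins, had 4911 ± 392 and 71.4 ± 6.77 FPKM in WT_Ex, against 5270 ± 964 and 69.7 ± 17.4 FPKM in WT_Sed. Of 27 hypertrophy and fetal genes only Cebpb, a factor known to fall in the hearts of swimming mice, passed. It had 81.0, 121, 99.6, 126 and 101 FPKM in WT_Ex, against 27.2, 32.8, 22.0, 102 and 82.1 FPKM in WT_Sed, a rise of 1.24 ± 0.34 log2 units (adjusted p = 0.0419) with overlap through WT_Sed replicates 4 and 5. Its log2 change was 0.56 with Arntl in the model (adjusted p = 0.444). Nppa, the atrial natriuretic peptide, had 39.9, 10.1 and 69.7 FPKM in WT_Ex replicates 1 to 3 and 2806 and 4205 FPKM in replicates 4 and 5, against 30.4 to 95.7 FPKM in WT_Sed. Its log2 change was 2.07 ± 1.16 with all libraries and -0.64 ± 0.53 without replicates 4 and 5, and neither passed. Nppb (0.07 ± 0.45), Acta1 (-0.79 ± 0.47), Igf1 (0.10 ± 0.17) and Vegfa (-0.06 ± 0.14) did not pass.

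Genes of other cells of the heart were compared next. In bulk tissue fewer cells of a type and less RNA per cell cannot be told apart. Wt1, the factor of the epicardium and of some vessel cells (chromosome 2, 105126529 to 105173616, plus strand), had 2.16, 3.24, 2.41, 2.48 and 1.67 FPKM in WT_Ex, against 0.871, 0.776, 0.744, 0.777 and 0.923 FPKM in WT_Sed. It rose by 1.11 ± 0.13 log2 units (adjusted p = 0.000306) and by 1.22 ± 0.13 without replicates 4 and 5 (adjusted p = 0.000318). WT_Ex replicates 1 and 3 had 2.16 and 2.41 FPKM of Wt1 with 0.198 and 0.884 FPKM of the mesothelial gene Upk3b, which stood at 0.740 to 1.17 FPKM in WT_Sed. The other 7 mesothelial genes did not pass.

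Collagen and matrix genes, 43 in number, held 1 riser and no gene that fell, near the 2.94% higher and 2.53% lower of all genes tested. Timp3, a matrix-bound inhibitor of metalloproteases, had 20.5, 20.2, 15.0, 26.6 and 23.9 FPKM in WT_Ex, against 9.94, 10.5, 9.13, 11.1 and 12.2 FPKM in WT_Sed, a rise of 0.95 ± 0.16 log2 units (adjusted p = 0.0042, 0.0664 without replicates 4 and 5). Olfml2b, an olfactomedin-like secreted protein (chromosome 1, 170644532 to 170682789, plus strand), had 8.63, 8.24, 9.15, 12.0 and 12.5 FPKM in WT_Ex, against 3.01, 4.04, 3.77, 3.82 and 1.91 FPKM in WT_Sed. It rose by 1.49 ± 0.17 log2 units (adjusted p = 0.000306) and by 1.30 ± 0.19 without replicates 4 and 5 (adjusted p = 0.00748). All trained hearts lay above all sedentary ones for both genes.

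Among vessel genes Aplnr, the apelin receptor, had 11.5, 7.93, 10.1, 4.91 and 4.95 FPKM in WT_Ex, against 27.2, 24.9, 14.5, 10.96 and 19.0 FPKM in WT_Sed, and fell by 1.25 ± 0.25 on the log2 scale (adjusted p = 0.0126). Notch1 rose by 0.47 ± 0.10 log2 units, the endothelial adhesion molecule Pecam1 by 0.37 ± 0.09 and smooth muscle actin Acta2 by 0.86 ± 0.24. Of 26 genes of angiogenesis and hypoxia 24 did not pass, and of 8 endothelial markers 7 did not. Among 5 smooth muscle and pericyte markers tested Acta2 alone passed, 3 had a positive and 2 a negative change. Without replicates 4 and 5, 0 of these 5 passed. Lyve1, found on lymphatic endothelium and resident macrophages, rose by 0.79 ± 0.22 log2 units, with 14.2 and 18.1 FPKM in WT_Ex replicates 4 and 5, 7.05 to 11.7 FPKM in replicates 1 to 3 and 4.80 to 8.51 FPKM in WT_Sed. Prox1, a factor of lymphatic endothelium and heart muscle, fell by 1.02 ± 0.28 log2 units, with a change of -0.34 when Arntl was in the model (adjusted p = 0.448). Of 15 cytokine genes Socs3, a feedback inhibitor of cytokine signalling, and the oncostatin receptor Osmr rose, by 0.83 ± 0.21 and 0.50 ± 0.13. Nfe2l2, the antioxidant regulator NRF2, had 21.8 to 26.1 FPKM in WT_Ex and 14.4 to 19.2 FPKM in WT_Sed and rose by 0.53 ± 0.09 log2 units, also without replicates 4 and 5 (0.52, adjusted p = 0.0452). Its target Hmox1 rose by 0.74 ± 0.19 log2 units. The list of antioxidant genes and NRF2 targets as a whole moved little. Of 21 tested 2 rose and 0 fell, 12 had a positive and 9 a negative change, and the median was 0.04. With log2 Arntl in the model 0 of them passed. Cx3cr1, the fractalkine receptor of monocytes, had 0.191 to 0.373 FPKM in WT_Ex and 0.570 to 1.59 FPKM in WT_Sed and fell by 1.02 ± 0.26 log2 units. Ighj3, a joining segment of the antibody heavy chain, was at 0 in all 5 WT_Ex and at 0.938 to 3.65 FPKM in WT_Sed libraries. Joining segments are short, so few reads stand behind these values. The 4 lymphocyte markers, none of which reached the minimum level for the test, summed to 0.463 to 1.33 FPKM in WT_Ex. Their sum was 0.403 to 1.46 FPKM in WT_Sed, so the groups overlapped.

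**Figure D4:**
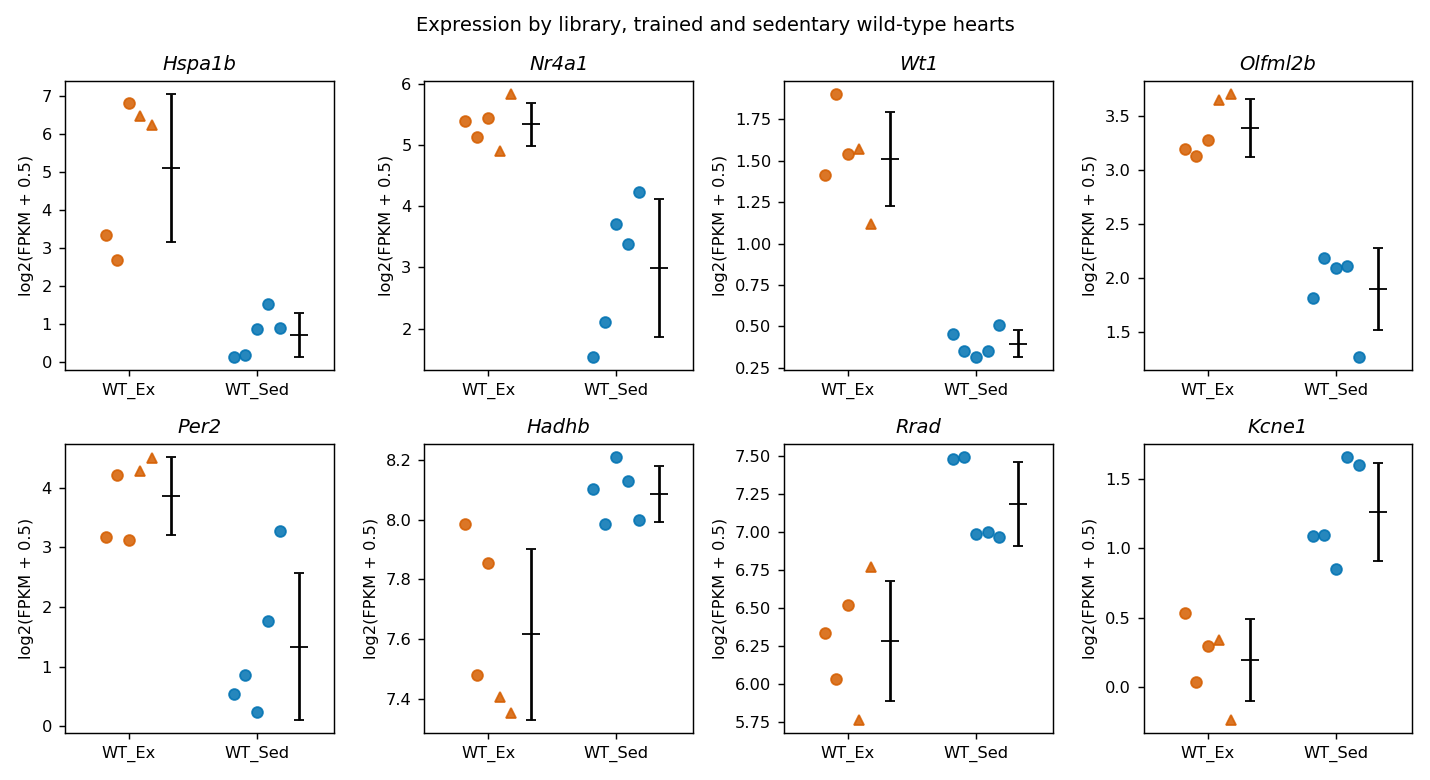
Expression of 8 genes in each wild-type library on the log2(FPKM + 0.5) scale, WT_Ex (orange) left of WT_Sed (blue), with triangles for WT_Ex replicates 4 and 5 and black bars for the mean ± SD of 5 libraries. Hspa1b, Nr4a1, Wt1, Olfml2b, Rrad and Kcne1 show no overlap of the groups, while Per2 and Hadhb overlap.

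The 56 genes called with and without replicates 4 and 5 include members of several groups above. The 10 largest increases among them were Hspa1b, Hspa1a, Atf3, Nr4a3, Olfml2b, Dnaja1, Acer2, Maff, Pxdc1 and Jdp2. Acer2, a ceramidase of the Golgi, had 6.31, 8.28, 6.70, 11.3 and 9.96 FPKM in WT_Ex, against 2.87, 3.11, 2.63, 4.75 and 3.46 FPKM in WT_Sed (1.22 ± 0.16, adjusted p = 0.000765; 0.99 without replicates 4 and 5). Pxdc1 had 6.15 to 14.6 FPKM in WT_Ex and 3.62 to 4.69 FPKM in WT_Sed (1.15 ± 0.19). The 9 decreases include Kbtbd13, a muscle adaptor of ubiquitin ligases, with 1.30, 0.621, 1.21, 0.468 and 0.514 FPKM in WT_Ex, against 2.68, 2.04, 2.08, 1.77 and 2.56 FPKM in WT_Sed (-1.08 ± 0.18, adjusted p = 0.0038). Fam78a fell by 0.83 ± 0.12 log2 units and Pdzrn3, an ubiquitin ligase, by 0.64 ± 0.12, with no overlap of the groups in either. Hand2, a cardiac factor picked here after its values were seen, had 32.1 to 44.6 FPKM in WT_Ex and 14.8 to 28.4 FPKM in WT_Sed and rose by 0.90 ± 0.17 log2 units, and by 0.96 ± 0.20 without replicates 4 and 5. Akap12, an anchoring protein for kinase A picked in the same way, had 13.6, 13.2 and 13.9 FPKM in WT_Ex replicates 1 to 3 and 10.02 and 8.31 FPKM in replicates 4 and 5, against 7.88 to 8.90 FPKM in WT_Sed. Its log2 change was 0.45 ± 0.10 with all libraries and 0.67 ± 0.06 without replicates 4 and 5.

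Other changes leaned on the 2 libraries with abundant atrial transcripts. Lgals3, the lectin galectin-3, had 1.94, 4.42, 3.26, 24.2 and 29.7 FPKM in WT_Ex, against 1.56, 1.41, 1.04, 1.24 and 1.87 FPKM in WT_Sed. Its log2 change was 2.08 ± 0.50 with all libraries (adjusted p = 0.0269) and 0.90 ± 0.22 without replicates 4 and 5 (adjusted p = 0.0825). Ccn2, a matricellular target of YAP and TGF-beta signalling, had 32.5, 38.6, 32.9, 89.2 and 271 FPKM in WT_Ex, against 15.3 to 33.5 FPKM in WT_Sed. Its log2 change was 1.61 ± 0.42 with all libraries and 0.75 ± 0.23 without those 2. The matrix protein Aebp1 (1.19 and 0.65), the glycogen-binding Stbd1 (0.98 and 0.44) and the guidance cue Slit3 (0.94 and 0.41) shrank in the same way. Among the genes that fell, Gpr22, an orphan receptor of heart and brain, had 6.34, 4.01, 5.23, 1.94 and 2.39 FPKM in WT_Ex, against 5.42 to 12.7 FPKM in WT_Sed (-0.96 with all libraries and -0.53 without those 2). Scube2 had log2 changes of -1.06 and -0.64, and Irx4, a ventricular transcription factor, of -0.53 and -0.28. None of these 8 genes passed without replicates 4 and 5.

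The same training was given to labelled knockout mice. Their 10 libraries are not in the wild-type means, but their spread between mice entered the test that called the genes. Calls in the 2 genotypes are therefore not independent of one another. In labelled knockout hearts 1656 genes were higher (12.1%) and 2236 lower (16.3%) in KO_Ex than in KO_Sed. Of the 403 genes higher in WT_Ex 365 (90.6%) had a positive change in labelled knockout hearts too, where 46.7% of all genes did, and 207 passed there in the same direction and 3 in the opposite one. Of the 347 genes lower in WT_Ex 312 (89.9%) had a negative change, where 53.3% of all genes did, and 180 passed in the same direction and 3 in the opposite one. Tissue markers moved in the labelled knockout comparison too. Myl7 stood at 2055 and 1355 FPKM in KO_Ex replicates 2 and 5, against 1.27 to 1.76 FPKM in the other 3 KO_Ex and 0.674 to 14.8 FPKM in the KO_Sed libraries. The 10 atrial genes, Nppa among them, summed to 1621 to 6005 FPKM in KO_Ex and 368 to 1005 FPKM in KO_Sed, without overlap. The 3 KO_Ex libraries with little Myl7 had sums of 1621, 1718 and 2881 FPKM. Their sums were thus above KO_Sed without Myl7, and do not show atrial tissue in those 3 hearts. The ventricular genes summed to 14294 to 16629 FPKM in KO_Ex and 21056 to 24838 FPKM in KO_Sed. Fat genes summed to 449 and 49.4 FPKM in KO_Ex replicates 2 and 5, against 7.62 to 11.6 FPKM in the other 3 KO_Ex and 9.23 to 15.4 FPKM in the KO_Sed libraries. Without the 4 libraries of both genotypes with Myl7 above 1000 FPKM, 343 of the 403 higher genes (85.1%) had a positive change and 300 of the 347 lower genes (86.5%) a negative one in labelled knockout hearts, against 46.6% and 53.4% of all genes, and 175 and 153 passed in the same direction. Hspa1b rose by 2.83 ± 0.65 log2 units in labelled knockout hearts, Nr4a3 by 2.02 ± 0.35, Atf3 by 1.90 ± 0.36, Olfml2b by 1.83 ± 0.17 and Wt1 by 0.77 ± 0.13. Wt1 had 1.64 ± 0.33 FPKM in KO_Ex and 0.752 ± 0.124 FPKM in KO_Sed. Hadhb fell by 0.81 ± 0.12 on the log2 scale there. Per2 had a log2 change of 0.35 ± 0.55 (adjusted p = 0.682), with 11.4 ± 4.38 FPKM in KO_Ex and 9.89 ± 4.69 FPKM in KO_Sed.

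The training change differed between genotypes at an interaction adjusted p under 0.05 for 1005 genes (7.32%), among them 35 of the 403 and 27 of the 347. Since the wild-type values that chose these genes also enter the interaction, their values are given as a description. With log2 Arntl in the model 267 genes passed the interaction, so its count depended on a level that differed among the wild-type hearts. The part of the hour of collection in the differences between genotypes was not tested. Acer2 rose in wild-type hearts and had 6.46 ± 0.908 FPKM in KO_Ex and 5.93 ± 0.833 FPKM in KO_Sed (interaction -1.10 ± 0.22). Kcne1 fell in wild-type hearts and had 6.48 ± 1.47 FPKM in KO_Ex and 6.11 ± 0.662 FPKM in KO_Sed (interaction 1.12 ± 0.25). Pdhb, lower after running in both genotypes, had 106 ± 6.42 FPKM in KO_Ex and 163 ± 2.04 FPKM in KO_Sed (interaction -0.40 ± 0.09). Complex I genes passed the interaction for 34 of 36 members, genes of complexes III to V for 33 of 35 and matrix genes for 24 of 43. In labelled knockout hearts these lists had medians of -0.66, -0.68 and 1.17, against -0.05, -0.06 and 0.20 in wild-type hearts. Myh7, which did not pass in wild-type hearts, had 354 ± 143 FPKM in KO_Ex and 117 ± 29.5 FPKM in KO_Sed (interaction 1.47 ± 0.33, adjusted p = 0.0152), and Igf1 had 2.80 ± 0.398 FPKM in KO_Ex and 1.10 ± 0.16 FPKM in KO_Sed (interaction 0.94 ± 0.24, adjusted p = 0.0258).

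**Figure D5:**
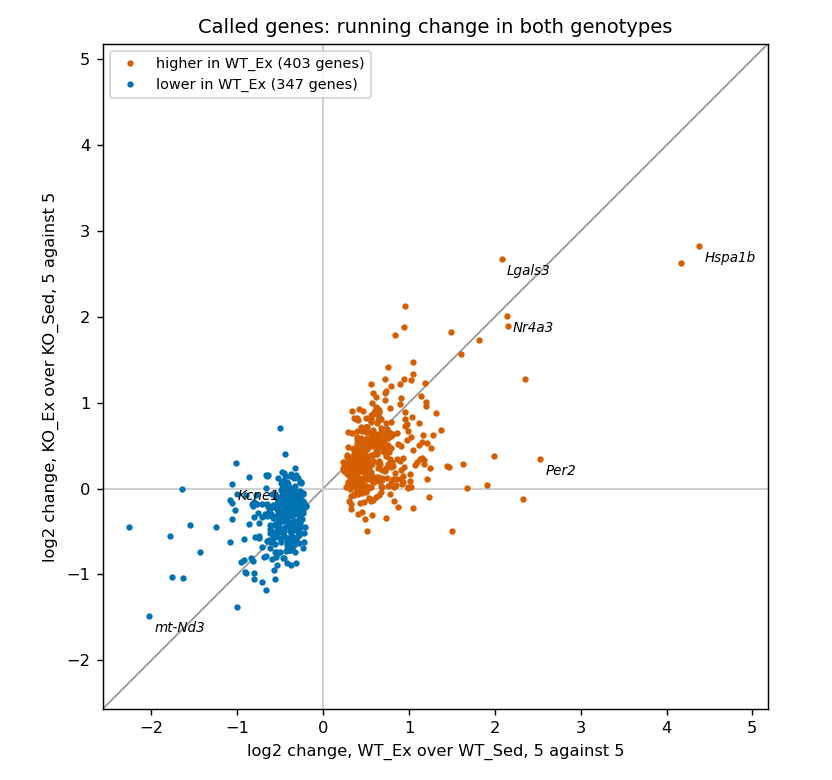
Log2 change of the 750 genes called in wild-type hearts, WT_Ex over WT_Sed (x axis), against their change in labelled knockout hearts, KO_Ex over KO_Sed (y axis), 5 libraries a group, with 403 higher genes in orange, 347 lower genes in blue and the line of equal change in grey. Most genes share the sign (365 and 312), and Per2 and Kcne1 lie near 0 on the y axis.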

How the data were processed

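The authors deposited 1 table of FPKM per gene for 20 libraries. Per the labels' protocols, total RNA from heart was poly-A selected and made into directional libraries. The submitters' processing notes name DESeq2 1.20.0, featureCounts 1.5.0-p3, HISAT2 2.0.5 and the mm10 build, without roles. Gene positions are from GENCODE on GRCm38 (25839 genes matched). FPKM times exon length gave whole reads, within 0.01 reads, for 96.1 to 96.4% of values, and library sizes behind the values showed scaling between libraries by the authors, so no further scaling was applied. Whether counting used strand is not given in the sources used here.

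Genes with a mean of at least 0.5 FPKM were tested (13723, with 12128 left out). The model, with 1 mean for each of 4 groups on log2(FPKM + 0.5), was run in limma 3.58.1 under R 4.3.3 (16 residual degrees of freedom, mean-variance trend, two-sided), with Benjamini-Hochberg adjustment and a threshold of 0.05. A fold change on this scale understates the change of low genes. The labels call the 5 samples of a group separate mice. The members, the 27 gene lists, the 14 marker lists and the alternatives were chosen with earlier results of these data known. A rule named the 10 largest changes without overlap and the 10 largest called with and without WT_Ex replicates 4 and 5 in each direction, the 5 that shrank most, up to 4 members a list and a fixed set. Further called members of lists were named after their values were seen. On simulated data with 50 genes per change, this comparison recovered 31 at a log2 change of 0.5, 40 at 1 and 50 at 2. There were 5 false calls among the genes left unchanged. The simulated noise was drawn separately for each gene and library. It held no difference along whole libraries, such as those of atrial transcripts or Arntl, so it gives no rate of false calls for these data. Python 3.11.15, pandas 2.3.3, numpy 2.4.6 and matplotlib 3.10.9 were used for tables and figures.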

Additional observations from a re-analysis of the deposited data

Results flagged for a closer look

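Among 228 sets of 5 libraries checked on the log2 scale, 8 had a library far from the rest. Chance alone gives about 1 in 20, so these are no more than chance would give. The share of the group's range taken by the gap was 0.764 for Atf3 and 0.738 for Fos, both with WT_Ex replicate 5 high, and 0.715 for Nppb with WT_Ex replicate 2 low (44.1 FPKM, against 210 to 390 FPKM in the other trained hearts). WT_Sed replicate 5 was low for Arntl (0.769) and Scube2 (0.796) and high for Ciart (0.786), and WT_Sed replicate 4 was high for Ahsa1 (0.77). Ucp1 gave 1.0 because WT_Sed replicate 1 had 0.0311 FPKM and the other sedentary hearts 0.

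The training change differed between genotypes, by the interaction term, for 9 of the genes named. Written as labelled knockout minus wild type, the log2 difference was -1.1 for Acer2, -0.449 for Ahsa1 and -0.4 for Pdhb. It was 0.645 for Fam78a, 0.936 for Igf1, 1.12 for Kcne1, 1.32 for Cx3cr1, 1.47 for Myh7 and 1.93 for Timp1. Timp1, an inhibitor of metalloproteases, had a change of 2.99 in labelled knockout hearts and of 1.06 in wild-type hearts, which did not pass there.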

How the results depend on the processing

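Counts are given as genes higher in WT_Ex, lower in WT_Ex and differing between genotypes, against 403, 347 and 1005. They were 208, 146 and 629 with no filter, 186, 54 and 406 in TPM, 1221, 1418 and 5041 with array weights, and 44, 29 and 267 with log2 Arntl in the model. Without WT_Ex replicates 4 and 5 the first 2 were 48 and 9, without the 4 libraries with Myl7 above 1000 FPKM 33 and 6, without WT_Ex replicates 2, 4 and 5 11 and 1, and with the wild-type groups alone 52 and 9. With log2 Myl7 in the model 160 genes were lower. Without the 5 libraries with Arntl above 2 FPKM they were 1, 3 and 1. Chosen after seeing the data, voom on recovered reads gave 105 lower and 505 differing genes, and the wild-type groups alone without replicates 4 and 5 gave 0 and 0 by limma. Leaving out 1 library at a time gave 94 to 1051, 33 to 1260 and 492 to 1607. With the replicate number as a block they were 804, 860 and 1305. Not every pair of same-numbered libraries deviated together (correlations of -0.06 to 0.31), so the numbers were not taken as pairs. Pseudocounts of 0.1 and 1, a minimum of 2 FPKM, median-ratio scaling and robust eBayes kept all 3 counts within 1.5 times. Of 2681 values of the 96 called genes named, 2679 kept their sign and 1594 stayed past the threshold. Per1 (-0.042) and Ciart (-0.624) turned without the 5 libraries with Arntl above 2 FPKM. The causes were not tested. Leaving out libraries also leaves fewer degrees of freedom. Depth limits genes near 0.5 FPKM most.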
